A study of Mus musculus with 80 samples.

Results

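Left ventricles of female C57Bl/6J mice exposed to a mixed radiation field at 50 cGy were compared with those exposed to 100 cGy of gamma radiation. Doses are absorbed doses in centigray (cGy). Members were taken by sex, field and dose in the sample labels, which gave 10 mixed field and 10 gamma libraries, 20 of the 80 libraries of the series. Both groups were on the normal diet. Unirradiated females on the same diet (sham, 0 cGy, 10 libraries) are given for their levels, and males of the same fields and doses (10 libraries each) for the difference between the sexes. The labels name the mixed field only as Mix and give no components, age or time after exposure. Field and dose changed together in this comparison and cannot be told apart. No label states that each library is a separate animal, and p-values therefore cover only the spread among these libraries, part of which may be technical.

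Ionizing radiation damages DNA, and gamma rays deposit their energy sparsely along their path, whereas charged particles deposit it in dense tracks. Damaged cells activate p53, pause the cell cycle and can turn on interferon and inflammatory genes. The left ventricle is mostly cardiomyocyte by mass and burns mainly fatty acids in its mitochondria, and fibroblasts, endothelium and resident macrophages make up most of its other cells.

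In each group 5 libraries carry title numbers 1 to 20 and 5 carry 21 to 40, called the lower and the upper title run here. The labels do not say what separates the runs. Library totals ran from 13532930 to 19612963 counts in mixed field and from 14165389 to 22143504 counts in gamma libraries. Myh6, the adult myosin heavy chain of the heart, had a median of 28550 CPM (counts scaled to a common normalized library size) in mixed field and 27800 CPM in gamma libraries. Myl7, an atrial light chain, was at most 0.452 CPM in mixed field and 0.286 CPM in gamma libraries. Gamma replicate 7 held 0.129 CPM of Xist, the RNA of the inactive X chromosome, where the next lowest gamma library held 117 CPM. No gamma or mixed field library held any count of the Y-linked Ddx3y. Mixed field replicate 10 stood apart, with a median correlation of 0.967 with its group. Within the lower run, mitochondrial genes took 19 to 22.8% of the counts in mixed field and 24.4 to 29.1% in gamma libraries, which did not overlap. These shares in the upper run were 20.7 to 31.3% in mixed field and 22.5 to 26% in gamma libraries. Of the counts in the lower run, 3.01 to 4.44% in mixed field and 0.780 to 5.03% in gamma libraries fell on the ribosomal RNA gene Rn18s-rs5, against under 1% in every library of the upper run.

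Over the 20 libraries, with the title run as a term, a small set of genes differed between mixed field and gamma. The proliferation genes Psrc1, Cdk1 and Mki67, the muscle coactivator Mamstr and the immune genes Oasl1 and Tap2 were among those higher in mixed field. The potassium channel Kcnk1, the phosphatase Ptpn4, the fatty acid translocase Cd36 and the clock gene Clock were among those lower. Of 14455 genes tested, 123 were called at an adjusted p under 0.05 (0.851%) by edgeR's quasi-likelihood test with Benjamini-Hochberg adjustment. In mixed field 31 were higher (0.214%) and 92 were lower (0.636%). The median change of the called genes was 0.51 on the log2 scale for those higher and -0.33 for those lower. This count was unsteady: leaving out 1 library gave between 1 call (without gamma replicate 8, or without gamma replicate 10) and 614 calls (without mixed field replicate 7). It was 29 without gamma replicate 7, 115 without mixed field replicate 10, and 2 when each library was corrected for the GC content and length of transcripts. Of the 123 genes, 122 had a GC value and could be tested with that correction, and all of these kept their direction. Cdk1, Mki67, Oasl1 and Tap2 were not called without gamma replicate 7, nor without mixed field replicate 10.

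Mamstr was the called gene that held in each of the 20 fits with 1 library left out, with a highest adjusted p of 0.00534. It encodes a coactivator of the MEF2 transcription factors of muscle (ENSMUSG00000042918, GRCm39 chromosome 7, 45289209 to 45295945). Mamstr ran from 8.73 through a median of 9.57 to 12.1 CPM in mixed field, against 4.67, 6.23 and 7.87 CPM in gamma libraries. Every mixed field library stood above every gamma library. Sham libraries ran from 7.48 through 8.52 to 12.1 CPM and overlapped both groups. The sham median lay below the lowest mixed field library and above the highest gamma library. The log2 change of Mamstr was 0.64 ± 0.08 (SE, n = 10 each; edgeR adjusted p 0.00118), with 0.70 ± 0.12 in the lower and 0.58 ± 0.13 in the upper run. It remained called with the correction for GC content and length (0.56, edgeR adjusted p 0.00494). In males the change was -0.01 ± 0.12, and the difference between the sexes missed the threshold (0.65 ± 0.17, edgeR adjusted p 0.0976).

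**Figure D1:**
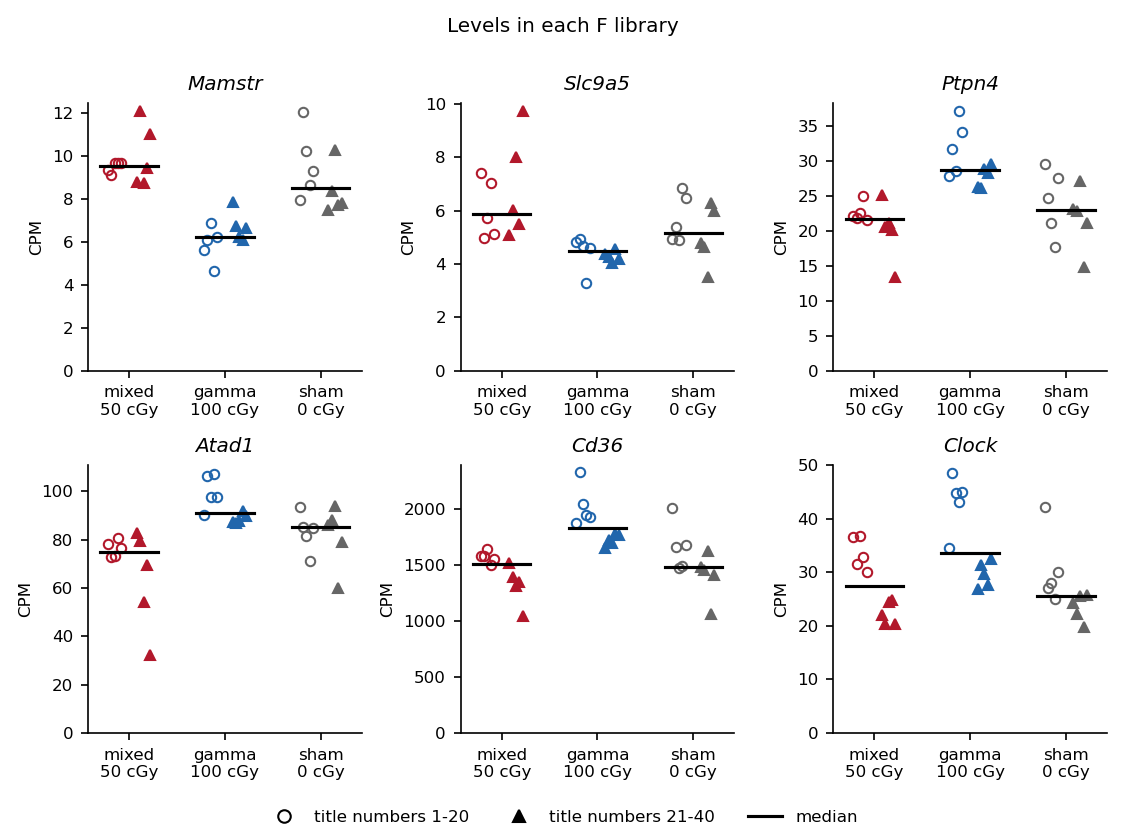
CPM in each F library for 6 genes called between mixed field (red) and gamma (blue), with sham (grey) beside them. Open circles are title numbers 1 to 20, filled triangles 21 to 40, and bars are medians over 10 libraries. Mixed field and gamma libraries do not overlap in Mamstr, Slc9a5, Ptpn4, Atad1 and Cd36, while in Clock they overlap over all 20 libraries and are apart within title numbers 21 to 40.

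Genes of cell division were the largest rises. Psrc1, a protein of the mitotic spindle, had a log2 change of 1.16 ± 0.22 (edgeR adjusted p 0.0312), with 0.712, 1.39 and 2.84 CPM (lowest, median, highest) in mixed field against 0.382, 0.685 and 0.862 CPM in gamma libraries. Each mixed field library was above the gamma median, though the ranges overlapped. Iqgap3, a scaffold protein of dividing cells, rose by 1.09 ± 0.22 (edgeR adjusted p 0.0336). Cdk1, the kinase that drives mitosis, rose by 1.01 ± 0.24 (adjusted p 0.0453), and Mki67, a marker of cycling cells, by 0.93 ± 0.23 (adjusted p 0.0494). In Iqgap3, Cdk1 and Mki67, 9 of 10 mixed field libraries were above the gamma median. These are low transcripts: Cdk1 had a median of 1.90 CPM in mixed field and 0.811 CPM in gamma libraries. Sham libraries ran from 0.562 to 6.07 CPM of Cdk1, from 1.13 to 10.97 CPM of Iqgap3 and from 2.07 to 14.87 CPM of Mki67. The highest mixed field values were 3.28 CPM of Cdk1, 8.27 CPM of Iqgap3 and 12.43 CPM of Mki67. Each of these sham highs was in sham replicate 9, and each sham low lay within the gamma range. Psrc1 ran from 0.351 to 1.72 CPM in sham. A change from sham was not tested. Of 24 cell cycle genes tested, 2 were called higher and 0 lower (0.851% of all genes were called), 18 changes were positive and the median was 0.20, against 0.01 over all genes tested. Within the lower run 22 of the 24 were positive, with a median of 0.34, and within the upper run 15, with a median of 0.15. For 3 of the 24 the difference between runs was called, lower in the upper run, beside 4% of all genes. These were Mcm3, Ccnd1 and Ccnd2, named after their values were seen. Aurkb, a mitotic kinase, had a change of 1.08 ± 0.29 that was not called (edgeR adjusted p 0.0622).

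The other named rises had varied roles. Kcne1, a subunit of the slow delayed rectifier potassium channel, had 3.47, 4.75 and 6.30 CPM (lowest, median, highest) in mixed field against 1.23, 2.61 and 5.11 CPM in gamma libraries (0.84 ± 0.19, edgeR adjusted p 0.0405). Rrad, a small GTPase that holds back L-type calcium channels, had medians of 149 CPM in mixed field and 105 CPM in gamma libraries (0.51 ± 0.10, adjusted p 0.0312). Slc9a5, a sodium-proton exchanger, ran from 4.97 through 5.86 to 9.71 CPM in mixed field against 3.29, 4.47 and 4.95 CPM in gamma libraries, with no overlap (0.55 ± 0.12, adjusted p 0.0393). Tmsb10, which binds actin monomers, rose by 0.58 ± 0.13 (adjusted p 0.0391). Gamt, the methyltransferase of creatine synthesis, rose by 0.58 ± 0.14 (adjusted p 0.0494). Neurl3, an E3 ubiquitin ligase, rose by 0.52 ± 0.12 (adjusted p 0.0488). Junb, an immediate early transcription factor, had medians of 33.01 CPM in mixed field and 24.2 CPM in gamma libraries (0.45 ± 0.11, adjusted p 0.0453). It was the 1 gene called among 25 immediate early genes tested, beside 0.851% of all genes. Of the 25, 19 had positive changes, with a list median of 0.18.

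The largest falls held in more libraries than the largest rises. In 10 of the 12 largest falls every mixed field library lay below the gamma median, which held for 6 of the 12 largest rises. Kcnk1, a background potassium channel, had the largest fall, -1.15 ± 0.24 (edgeR adjusted p 0.0364), with 0.410, 1.61 and 2.94 CPM in mixed field against 1.93, 4.21 and 5.17 CPM in gamma libraries. Rgs7, a regulator of G protein signalling, fell with a log2 change of -1.02 ± 0.25 (adjusted p 0.0494). Itpkc, a kinase of inositol trisphosphate, had 1.58, 2.35 and 3.82 CPM in mixed field against 3.34, 3.51 and 5.76 CPM in gamma libraries (-0.66 ± 0.12, adjusted p 0.0312). With the correction for GC content and length it was the other gene that remained called (-0.69, adjusted p 0.0336). Adra1a, an alpha adrenergic receptor of the heart, had medians of 13.3 CPM in mixed field and 16.1 CPM in gamma libraries (-0.60 ± 0.12, adjusted p 0.0312). In the lower run its medians were 14.1 CPM in mixed field and 26.3 CPM in gamma libraries.

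The other largest falls were in genes of varied roles. Ptpn4, a protein tyrosine phosphatase (ENSMUSG00000026384, GRCm39 chromosome 1, 119580197 to 119765343), ran from 13.4 through 21.8 to 25.15 CPM in mixed field, against 26.2, 28.8 and 37.2 CPM in gamma libraries. The groups did not overlap (-0.48 ± 0.08, edgeR adjusted p 0.0228), and the call held in 18 of 20 fits with 1 library left out. Sham libraries had a median of 23.02 CPM of Ptpn4. Atad1, which pulls misplaced proteins from the outer mitochondrial membrane, ran from 32.4 through 74.9 to 82.7 CPM in mixed field, against 86.9, 90.9 and 107 CPM in gamma libraries. These groups were also apart (-0.43 ± 0.10, adjusted p 0.0494). The lowest value of both genes was that of mixed field replicate 10. Arhgap20, a GTPase-activating protein (-0.55 ± 0.11), Prrg1, a membrane protein with a Gla domain (-0.47 ± 0.11), and Slf1, which brings a repair complex to damaged DNA (-0.44 ± 0.09), were called lower. So were Hsd17b11, a dehydrogenase of lipid droplets (-0.45 ± 0.09), Chm, an escort protein of Rab GTPases (-0.43 ± 0.10), and Bpnt2, a Golgi phosphatase (-0.43 ± 0.09). Their edgeR adjusted p values ran from 0.0312 for Arhgap20 and Slf1 to 0.0453 for Prrg1 and Chm.

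Of these 24 genes, 13 were also called within the lower run, beside 2.57% of all genes, and 1 within the upper run, beside 0.0346%. The 24 were chosen in a fit that holds the libraries of both runs. By edgeR 0 of the 24 were called in males, near the 0.501% of all genes called there. In males 1397 of all genes tested had an unadjusted p under 0.05. Mixed field and gamma did not overlap in 4 of the 24, which were chosen for their large changes among the 0.851% of genes called, and the share over all genes without overlap was not computed. A single gene of the 24, Mamstr, was called whichever library was left out, and 6 were called in at least 10 of the 20 such fits. Without gamma replicate 7, 14 of the 24 were not called, and without mixed field replicate 10, 6 were not. The 14 were Cdk1, Mki67, Kcne1, Oasl1, Tmsb10, Gamt, Slc9a5, Neurl3, Rgs7, Prrg1, Hsd17b11, Atad1, Chm and Bpnt2. The 6 were Cdk1, Mki67, Oasl1, Gamt, Neurl3 and Rgs7. Outside the 24, Junb, Rrm2b and Tap2 were not called without gamma replicate 7, nor Junb and Tap2 without mixed field replicate 10.

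**Figure D2:**
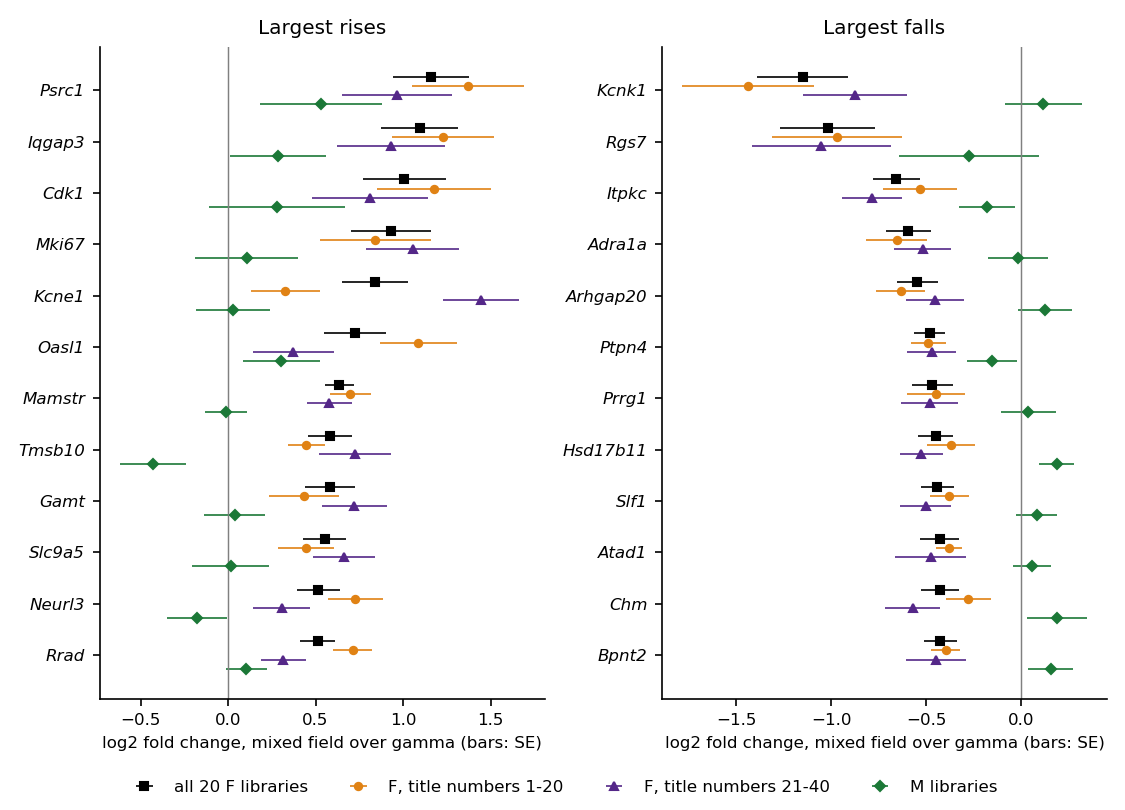
Log2 change of mixed field over gamma (horizontal axis) with its SE for the 12 largest rises and the 12 largest falls, over all 20 F libraries (squares), within each title run (circles and triangles) and in males (diamonds). Within the females both runs lie on the same side of 0 for each gene, and the male values lie nearer to 0 for most.

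Few of the 39 gene lists had a called member. Over the lists 670 genes were tested and 11 were called, or 1.64%, beside 0.851% of all genes. The p53 targets held 1 called gene in 24, Rrm2b, the p53-induced subunit of ribonucleotide reductase. It had 14.1, 23.9 and 29.2 CPM in mixed field against 28.04, 29.6 and 33.7 CPM in gamma libraries, and every mixed field library was below the gamma median (-0.40 ± 0.09, edgeR adjusted p 0.0453). Ccng1, another p53 target, had a change of -0.24 ± 0.07 that was not called (adjusted p 0.0793). Changes were positive in 12 of the 24 p53 targets, with a median of -0.003. Of 33 genes of DNA damage and repair 0 were called by edgeR in either direction, with 12 positive changes and a median of -0.05. Of the 33, 3 had an unadjusted p under 0.05, beside 3029 of all 14455 genes tested.

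Most fatty acid genes had negative changes over the 20 libraries and in the lower run. Cd36, the fatty acid translocase of the cardiomyocyte membrane (ENSMUSG00000002944, GRCm39 chromosome 5, 17986432 to 18094067), ran from 1047 through 1508 to 1642 CPM in mixed field, against 1649, 1826 and 2330 CPM in gamma libraries. The groups came close but did not overlap (-0.37 ± 0.06, edgeR adjusted p 0.0238), and the change was -0.36 ± 0.07 in the lower and -0.38 ± 0.10 in the upper run. Sham libraries had a median of 1483 CPM of Cd36. It was the 1 gene called among 32 of fatty acid oxidation and uptake, beside 0.851% of all genes. Of the 32, 4 had positive changes, with a list median of -0.15 against 0.01 over all genes. In the lower run 3 of the 32 were positive, with a median of -0.22, and 4 were called lower, beside 1.16% of all genes. In the upper run 15 were positive, with a median of -0.03. The difference between runs (upper minus lower) was called higher for 5, beside 4.57% of all genes. Pdk4, the kinase that spares glucose by holding back pyruvate dehydrogenase, had medians of 251 CPM in mixed field and 382 CPM in gamma libraries, a change that was not called (-0.94 ± 0.26, edgeR adjusted p 0.0712). Gamma replicate 2 held 1856 CPM of Pdk4, far above the other gamma libraries.

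The heat shock and glucocorticoid lists gave single calls. Chordc1, a cochaperone of HSP90, had medians of 33.4 CPM in mixed field and 40.8 CPM in gamma libraries (-0.29 ± 0.06, edgeR adjusted p 0.0312). It was the 1 gene called among 31 heat shock genes, beside 0.851% of all genes. Within each run the groups did not overlap in Chordc1. Klf9, a transcription factor induced by glucocorticoids, had 89.0, 113 and 144 CPM in mixed field against 129, 152 and 166 CPM in gamma libraries (-0.40 ± 0.08, adjusted p 0.0336). Every mixed field library was below the gamma median of Klf9. It was the 1 gene called among 17 glucocorticoid-induced and metallothionein genes, beside 0.851% of all genes. Of the 17, 4 had positive changes, with a list median of -0.12. In the lower run 3 of the 17 were positive, with a median of -0.34, and 5 were called lower, beside 1.16% of all genes. In the upper run 9 were positive, with a median of 0.09. The difference between runs (upper minus lower) was called higher for 4, beside 4.57% of all genes.

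Interferon and MHC genes had mostly positive changes over the 20 libraries. Of 25 macrophage markers 15 were positive, with a median of 0.02, beside 52.4% of all genes positive. Oasl1, an interferon-induced relative of the oligoadenylate synthetases, had 2.16, 3.99 and 5.36 CPM in mixed field against 1.42, 2.52 and 4.14 CPM in gamma libraries (0.72 ± 0.18, edgeR adjusted p 0.0494). It was the 1 gene called of 49 in the interferon response, beside 0.851% of all genes, though 47 of the 49 changes were positive, with a median of 0.27. Isg15, a ubiquitin-like interferon product (0.74 ± 0.20), and Stat2, a transcription factor of the pathway (0.32 ± 0.10), were not called, with edgeR adjusted p values of 0.0665 and 0.0864. Tap2, which carries peptides for MHC class I, had medians of 23.8 CPM in mixed field and 16.9 CPM in gamma libraries (0.39 ± 0.09, adjusted p 0.0453). It was the 1 gene called of 12 in MHC class I presentation, beside 0.851% of all genes. In 11 of these 12 the change was positive, with a median of 0.28. Of 7 MHC class II genes 0 were called by edgeR, and all 7 changes were positive with a median of 0.21. Of the 7, 2 had an unadjusted p under 0.05, beside 3029 of all 14455 genes tested. Of 9 erythroid genes 8 had positive changes, with a median of 1.43. None was called by edgeR, and 7 had an unadjusted p under 0.05, all higher, beside the 3029 of all genes in either direction. The summed erythroid level ran from 363 to 4015 CPM in mixed field, highest in replicate 5, and from 245 to 983 CPM in gamma libraries. Hba-a1, an alpha globin whose reads can be shared with its near-identical copy, had a change of 1.52 ± 0.40 (edgeR adjusted p 0.0622). In whole tissue, more or fewer cells of a type and more or less RNA per cell cannot be told apart.

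The called genes shared features of sequence. The 31 genes called higher had a median GC content of 55.7% in their longest GENCODE transcript, and the 92 called lower had 41.8%, beside 49.3% over all genes tested. Of the 92 lower genes, 90 had a GC content below the median of all genes, and of 30 higher genes with a value 24 were above it. Median transcript length was 3366 bases for the higher, 6610 bases for the lower and 4204 bases for all genes tested. Cd36 has a GC content of 35.7% and Clock of 41.5%, while Mamstr has 54.5%. Across 14412 genes over the 20 libraries, 14628 in the lower run, 14392 in the upper run and 15126 in males, which are not independent replicates, Spearman's rank correlation between the log2 change and GC content was 0.43 over the 20 libraries, 0.39 in the lower and 0.23 in the upper run, and 0.02 in males. With length it was -0.33 over the 20 libraries. The part of GC content and length in the calls was not tested beyond the corrected fit, which called 2 genes.

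The contrast between the fields itself differed between the title runs. In the lower run nearly all macrophage, collagen and interferon genes tested had positive changes, of which 5 of 25, 4 of 24 and 17 of 49 were called, and 11 of 13 genes of the mitochondrial genome were called lower. In the upper run the macrophage, collagen and mitochondrial medians had the other sign, the interferon median was near 0, and none of these genes was called by edgeR. The difference between runs (upper minus lower) was called for 1238 of 14455 genes (8.56%) by edgeR, with 660 higher (4.57%) and 578 lower (4%). Of 1232 of these tested in both runs, 645 had a negative change in the lower and a positive change in the upper run, 566 the reverse, and 21 kept 1 sign. This count was 743 without gamma replicate 7, 999 without mixed field replicate 10 and 353 without both, and ran from 650 to 2550 when each library was left out in turn. Within the lower run 377 of 14675 genes were called (2.57%), with 207 higher in mixed field (1.41%) and 170 lower (1.16%). Within the upper run 5 of 14436 were called (0.0346%), 4 higher (0.0277%) and 1 lower (0.00693%). There 3915 genes had an unadjusted p under 0.05.

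**Figure D3:**
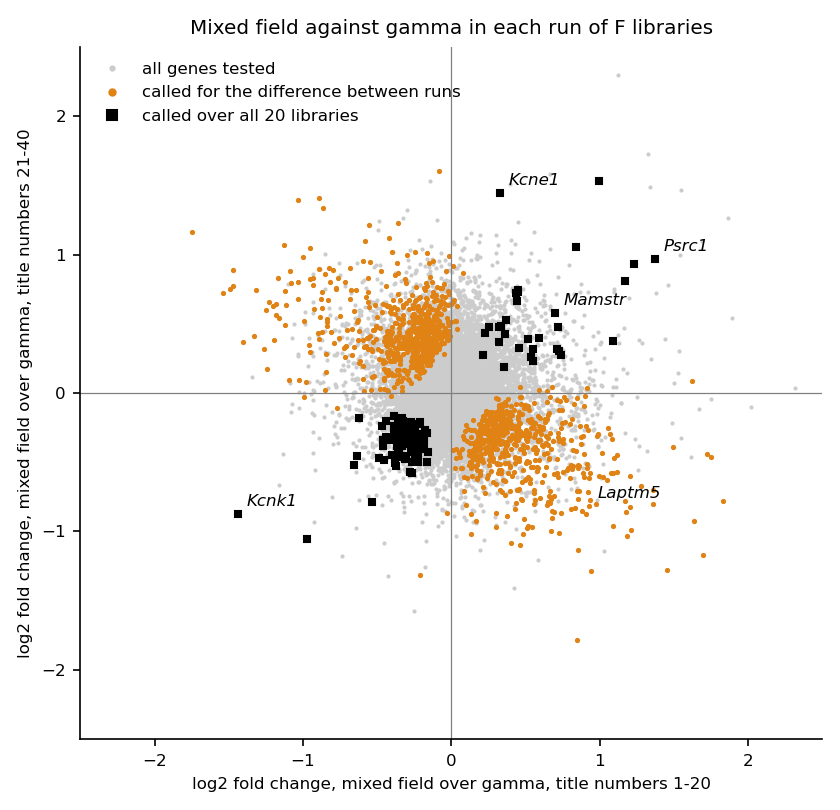
Log2 change of mixed field over gamma in title numbers 1 to 20 (horizontal axis) and 21 to 40 (vertical axis). Each point is a gene, with orange for the 1238 called for the difference between runs and black squares for the 123 called over the 20 libraries, and 2 genes lie outside the axes. Orange points fill the quadrants of opposite sign, and black squares lie in the quadrants of equal sign.

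The 123 genes called over the 20 libraries had the same direction in both runs, as selection on the pooled change favours. Their median absolute change was 0.35 in the lower and 0.36 in the upper run, and 44 were called in the lower run alone and 1 in the upper run alone. Kcne1 was the 1 gene of the 123 also called for the difference between runs (1.12 ± 0.30, edgeR adjusted p 0.0241). It had a change of 0.33 ± 0.20 in the lower run and 1.45 ± 0.22 in the upper run. The call on that difference was lost without gamma replicate 7 (adjusted p 0.0502) and without mixed field replicate 8 (adjusted p 0.0532). The other genes called in the upper run were Slc43a2, lower in mixed field, and Lrrc4b, Fitm1 and Rpl35rt, higher in mixed field, which were named after their values were seen. Fitm1, a protein of lipid droplets in muscle, had a change of 0.62 ± 0.10 in the upper run (adjusted p 0.0454) and of -0.19 in the lower run. Lrrc4b, an adhesion protein, had 0.85 ± 0.11 in the upper run (adjusted p 0.0273), and Rpl35rt, a copy of a ribosomal protein gene that can share reads with its parent, had 1.40 ± 0.17 (adjusted p 0.0241).

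Genes of leukocytes led the difference between runs. Laptm5, a lysosomal membrane protein of blood cells (ENSMUSG00000028581, GRCm39 chromosome 4, 130638161 to 130663452), had 29.9, 31.45 and 37.03 CPM (lowest, median, highest of 5) in mixed field against 13.5, 15.6 and 26.2 CPM in gamma libraries of the lower run. Laptm5 in the upper run had 8.45, 15.04 and 20.44 CPM in mixed field against 19.88, 28.3 and 29.98 CPM in gamma libraries. The groups did not overlap in the lower run, and overlapped by a small margin in the upper run. The difference in change was -1.75 ± 0.25 (edgeR adjusted p 0.00148). Lcp1, an actin bundler of leukocytes, differed by -1.43 ± 0.20 (adjusted p 0.00121), with changes of 0.69 in the lower and -0.74 in the upper run. Cybb, the catalytic subunit of the phagocyte oxidase, differed by -1.66 ± 0.27 (adjusted p 0.00453). Csf1r, the receptor that keeps macrophages alive, differed by -1.14 ± 0.18 (adjusted p 0.00256), and the groups did not overlap in either run. Slc43a2, an amino acid transporter, had medians of 28.8 CPM in mixed field and 19.9 CPM in gamma libraries of the lower run. In the upper run Slc43a2 had medians of 16.8 CPM in mixed field and 29.8 CPM in gamma libraries (difference -1.14 ± 0.15, adjusted p 0.00121). Sdc3, a heparan sulfate proteoglycan, differed by -0.93 ± 0.14 (adjusted p 0.00256). These 6 genes remained called whichever library was left out, with a highest adjusted p of 0.0136 for Cybb.

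Macrophage markers moved together by this measure. Of 25 tested, 13 were called lower in the difference and 0 higher, beside 4% of all genes called lower, and the median difference was -0.86. Changes were positive in 25 of 25 within the lower run, where 5 were called higher, beside 1.41% of all genes. Within the upper run 0 of 24 were positive and 0 were called by edgeR. There 11 of the 24 had an unadjusted p under 0.05, beside 3915 of all 14436 genes. Summed macrophage levels ran from 541 to 842 CPM in mixed field and from 386 to 589 CPM in gamma libraries of the lower run. Upper-run sums ran from 351 to 482 CPM in mixed field and from 428 to 689 CPM in gamma libraries, with the highest in gamma replicate 7. Adgre1, the F4/80 antigen, had the largest difference of the list, -2.22 (edgeR adjusted p 0.00644), a gene singled out after its values were seen. Cd68, a lysosomal marker of macrophages, differed by -0.76 ± 0.24 (adjusted p 0.0496), and this call held in 7 of 20 fits with 1 library left out (adjusted p 0.0807 without gamma replicate 7). Lyve1, a marker of resident macrophages and lymphatic vessels, had a difference of -0.69 ± 0.27 that was not called (adjusted p 0.112). The macrophage count was 8 without gamma replicate 7, 7 without that library and mixed field replicate 10, and 8 to 19 over the fits with 1 library left out.

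**Figure D4:**
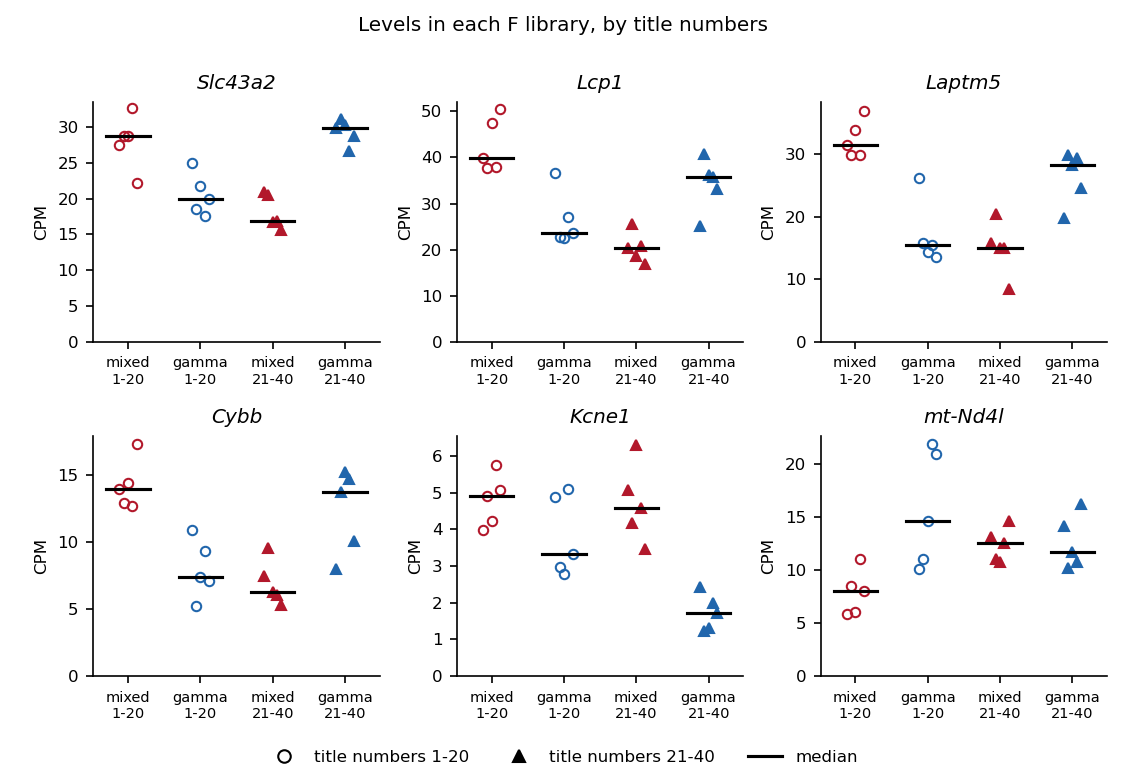
CPM in each F library for 6 genes called for the difference between runs, with mixed field (red) left of gamma (blue) within title numbers 1 to 20 and 21 to 40. Bars are medians of 5 libraries. Slc43a2, Lcp1, Laptm5 and Cybb have the higher median in mixed field in the lower run and in gamma in the upper run, Kcne1 is apart mainly in the upper run, and mt-Nd4l mainly in the lower run.

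Collagen and matrix genes had differences of the same sign. Of 24 genes of collagens and their processing, 13 were called lower in the difference between runs and 0 higher, with a median of -0.82. Of all genes 4% were called lower in that difference and 4.57% higher. Their median change was 0.52 in the lower run, where 4 were called higher, beside 1.41% of all genes. In the upper run the median was -0.27 and edgeR called 0. There 7 of the 24 had an unadjusted p under 0.05, beside 3915 of all 14436 genes. Summed collagen levels ran from 2254 to 3576 CPM in mixed field and from 1675 to 2648 CPM in gamma libraries of the lower run. In the upper run they were 1776 to 2049 CPM in mixed field and 1807 to 2954 CPM in gamma libraries, with the highest again in gamma replicate 7. Without that library 3 collagen genes were called lower in place of 13, and the median was -0.71. Of 29 other matrix genes, 9 were called lower and 1 higher, and without gamma replicate 7 these counts were 2 and 1. Serpinh1, the collagen chaperone, had the smallest p of the collagen list over the 20 libraries and was not called there (0.18 ± 0.07, edgeR adjusted p 0.158). Col6a1, a chain of type VI collagen, had a change of 0.35 ± 0.10 in the lower and -0.06 ± 0.12 in the upper run. Tgfb1, which drives matrix synthesis, had 0.33 ± 0.12 in the lower and 0.28 ± 0.12 in the upper run and was called in neither.

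Within the lower run, 17 of 49 interferon response genes were called higher in mixed field, beside 1.41% of all genes, and 49 of 49 changes were positive, with a median of 0.49. Within the upper run 24 of 49 were positive and 0 were called by edgeR, with a median of -0.005. There 3 of the 49 had an unadjusted p under 0.05, beside 3915 of all 14436 genes. The difference between runs was called lower for 5 of the 49 and higher for 0, beside 4% of all genes called lower. Isg15 had medians of 7.17 CPM in mixed field and 3.61 CPM in gamma libraries of the lower run, and 5.93 CPM in mixed field and 4.77 CPM in gamma libraries of the upper run. Tap1, the partner of Tap2, had a change of 0.82 ± 0.16 in the lower run (edgeR adjusted p 0.0318) and of 0.10 ± 0.19 in the upper run. H2-DMa, which loads peptides on MHC class II, had 0.74 ± 0.23 in the lower and 0.03 ± 0.15 in the upper run. Of 7 MHC class II genes 2 were called lower in the difference between runs, and medians were 0.63 in the lower and -0.22 in the upper run.

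Mitochondrial genes ran the opposite way. All 13 protein genes of the mitochondrial genome had negative changes in the lower run, where 11 were called lower in mixed field, beside 1.16% of all genes, with a median of -0.51. In the upper run 10 of 13 were positive and 0 were called by edgeR, with a median of 0.24. There 4 of the 13 had an unadjusted p under 0.05, beside 3915 of all 14436 genes. The difference was called higher for 9 of 13, beside 4.57% of all genes, with a median of 0.71. mt-Nd5, a subunit of complex I, had 11670, 12740 and 15260 CPM in mixed field against 15790, 18100 and 21580 CPM in gamma libraries of the lower run, without overlap. mt-Nd5 in the upper run had medians of 18370 CPM in mixed field and 19920 CPM in gamma libraries. mt-Nd4l, whose reads can be shared with the overlapping mt-Nd4, differed between runs by 0.97 ± 0.28 (edgeR adjusted p 0.0352), a call that held in 10 of 20 fits with 1 library left out (adjusted p 0.0667 without gamma replicate 7). Of 32 nuclear genes of the respiratory chain, 13 were called higher in the difference and 0 lower, with medians of -0.09 in the lower and 0.32 in the upper run. Without gamma replicate 7 these counts were 5 of the mitochondrial genome and 7 of the nuclear genes.

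**Figure D5:**
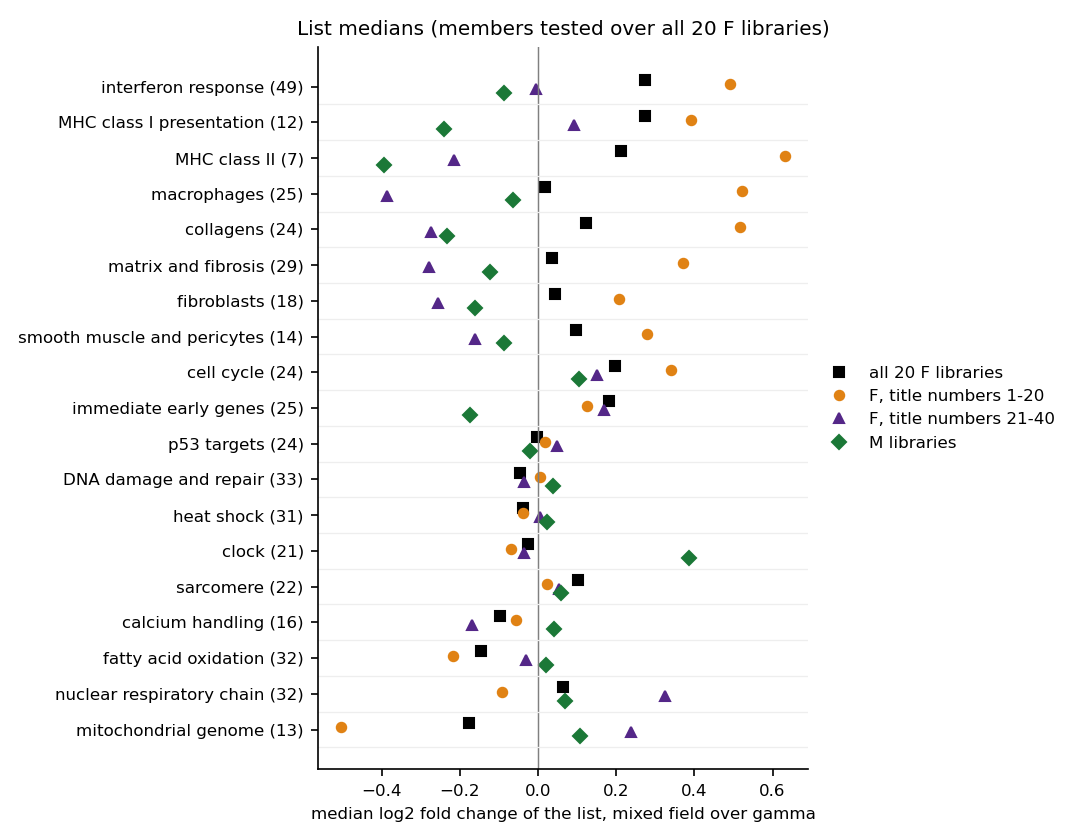
Median log2 change of mixed field over gamma for 19 gene lists, with the number of members tested in brackets, over all 20 F libraries (squares), in each title run (circles for 1 to 20, triangles for 21 to 40) and in males (diamonds). Macrophage, collagen and matrix medians lie right of 0 in the lower run and left of it in the upper run, the mitochondrial genome lies the other way, and the clock list stands apart in males.

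The share of Rn18s-rs5, given above, was higher in every library of the lower run than in any of the upper run. With the log2 of that share as a further term, 31 genes were called over the 20 libraries and 1848 for the difference between runs. Spearman's rank correlation of the difference between runs was -0.07 with GC content and -0.28 with length, and 1014 genes were called for it with the correction for both. Whether cell content, RNA quality or handling separates the runs was not tested.

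The contrast between the fields also differed between the sexes for a small set of genes, 3 of them in the clock list. The sample labels used here hold no time of day of collection, and its part in the clock genes was not tested. In the circadian clock CLOCK and BMAL1 drive the Period genes, the REV-ERB receptors and factors such as TEF, whose proteins feed back on the clock or on its outputs. Several of these genes were higher in mixed field than in gamma in males, and this change was smaller or of the other sign in females. The difference (F minus M) was called for 20 of 15181 genes (0.132%) by edgeR, with 9 higher (0.0593%) and 11 lower (0.0725%). This count ran from 14 to 405 over the fits with 1 of the 40 libraries left out. The highest came without male mixed field replicate 5, and it was 38 and 49 without female mixed field replicates 6 and 7 and 32 without female gamma replicate 10. Within the lower run alone 8 genes were called, and within the upper run alone 0 by edgeR, with 2388 at an unadjusted p under 0.05. Of 18 of these that were also tested over the 20 F libraries, 14 were called in males and 1 in females. Within males 76 of 15181 genes were called (0.501%). None of the 123 genes called in females was called in males by the same fit, where 6 of the 123 had an unadjusted p under 0.05, and 52 of the 123 had the same direction in males.

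Promoters of clock genes named here are shown for the core activator Clock, the REV-ERB beta gene Nr1d2 and the output factor gene Tef, and Per2 is named only. The sequences are the 250 bases before the transcription start in the RefSeq table on GRCm38.p6, read 5′ to 3′ on the strand of the gene, with the first entry taken where a gene has several. Capitals mark a match to a searched motif.
Clock (minus strand, chr5:76304793-76305042): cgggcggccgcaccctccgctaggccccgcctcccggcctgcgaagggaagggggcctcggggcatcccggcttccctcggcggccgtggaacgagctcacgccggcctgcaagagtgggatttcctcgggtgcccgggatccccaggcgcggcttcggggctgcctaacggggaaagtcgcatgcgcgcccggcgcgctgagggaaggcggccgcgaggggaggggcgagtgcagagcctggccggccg
Nr1d2 (minus strand, chr14:18239107-18239356): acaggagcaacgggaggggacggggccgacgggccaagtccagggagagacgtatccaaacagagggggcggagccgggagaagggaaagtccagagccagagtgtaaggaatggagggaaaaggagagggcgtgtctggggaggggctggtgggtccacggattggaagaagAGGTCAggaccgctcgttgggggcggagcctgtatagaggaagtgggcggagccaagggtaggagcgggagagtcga
Tef (plus strand, chr15:81802423-81802672): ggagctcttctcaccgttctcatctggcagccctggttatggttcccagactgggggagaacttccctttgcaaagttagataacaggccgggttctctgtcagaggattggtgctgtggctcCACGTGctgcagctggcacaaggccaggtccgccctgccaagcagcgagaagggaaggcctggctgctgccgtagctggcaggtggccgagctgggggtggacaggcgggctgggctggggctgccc
Searched on both strands were CACGTG, the E-box bound by CLOCK and BMAL1, TTATGNAA, the D-box bound by TEF, AGGTCA, the core of the REV-ERB element, and GAANNTTC, the heat shock element. The capitals in Tef are an E-box, 127 to 122 bases before the start, and those in Nr1d2 are an AGGTCA, 77 to 72 bases before it. None of the 4 motifs is in this window of Clock. Of 32851 promoter windows of the table, 6.02% hold the E-box, 3.07% the D-box, 14.02% AGGTCA and 6.69% the heat shock element, so that such matches are common and describe the letters alone.

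Clock had 20.3, 27.45 and 36.7 CPM (lowest, median, highest) in mixed field against 26.9, 33.6 and 48.7 CPM in gamma libraries of the females. Levels in both fields were higher in the lower run, with medians of 32.8 CPM in mixed field and 44.8 CPM in gamma libraries, than in the upper run, where they were 22.02 CPM in mixed field and 29.8 CPM in gamma libraries. The change was -0.39 ± 0.07 (edgeR adjusted p 0.0238), and the call held in 18 of 20 fits with 1 library left out. In males the change of Clock was -0.39 ± 0.12, not called (adjusted p 0.164), and its difference between the sexes was 0.005 ± 0.17. Of 21 clock genes tested, Clock was the 1 gene called in females, beside 0.851% of all genes. In females 10 of the 21 changes were positive and the median was -0.03.

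Per2, a repressor of the clock, had 16.5, 31.97 and 53.8 CPM in mixed field against 18.5, 28.98 and 51.99 CPM in gamma libraries of the females, which overlapped almost wholly. Males had 16.4, 34.8 and 42.7 CPM of Per2 in mixed field against 6.92, 12.97 and 18.9 CPM in gamma libraries. In females the level differed between runs, with mixed field medians of 21.1 CPM in the lower and 42.4 CPM in the upper run. In males the groups were apart within both runs, with medians of 21.6 CPM in mixed field and 9.64 CPM in gamma libraries of the lower run, and of 40.3 CPM in mixed field and 13.7 CPM in gamma libraries of the upper run. The changes were 0.07 ± 0.16 in females and 1.32 ± 0.17 in males, with a difference of -1.25 ± 0.24 (edgeR adjusted p 0.0107). Tef had medians of 182 CPM in mixed field and 178 CPM in gamma libraries of the females, and of 237 CPM in mixed field and 134 CPM in gamma libraries of the males (difference -0.72 ± 0.13, adjusted p 0.00725). Nr1d2 had changes of -0.28 ± 0.09 in females and 0.41 ± 0.10 in males (difference -0.69 ± 0.13, adjusted p 0.0156). Of the 21 clock genes 3 were called lower in the difference between sexes and 0 higher, beside 0.0725% of all genes called lower. In males 9 clock genes were called higher and 2 lower, beside 0.283% of all genes called higher and 0.217% lower.

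Outside the clock list, Slc41a3, a magnesium transporter, had a male change of -0.93 ± 0.09 and a female change of -0.10 ± 0.08 (difference 0.83 ± 0.13, edgeR adjusted p 0.00281). Male Slc41a3 ran from 33.2 through 50.3 to 58.6 CPM in mixed field, against 68.8, 88.6 and 113 CPM in gamma libraries, without overlap. Rhobtb1, an atypical GTPase, differed by -1.01 ± 0.18 (adjusted p 0.00725), and Gpcpd1, a glycerophosphocholine phosphodiesterase, by -0.88 ± 0.16 (adjusted p 0.00941). Amd1, the decarboxylase of polyamine synthesis, differed by -0.78 ± 0.15 (adjusted p 0.0107), with female medians of 107 CPM in mixed field and 136 CPM in gamma libraries. Hsd17b11 was the gene called both in females and for the difference between the sexes (-0.64 ± 0.13, adjusted p 0.0204), with a male change of 0.19 ± 0.09. These 5 genes and Per2, Tef and Nr1d2 remained called for the difference whichever of the 40 libraries was left out. The atrial light chain Myl7, near 0 in the females, reached 628 CPM in mixed field and 243 CPM in gamma libraries of the males, and its part in the difference between sexes was not tested.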

How the data were processed

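RNA of left ventricular tissue was sequenced as paired reads on a NovaSeq-6000 after poly-A selection and NEBNext Ultra II library preparation, per the labels' protocols. FastQC 0.11.9, STAR 2.7.8a and GRCm39 are named in the submitters' processing notes, while for the counting tool, strand use and gene annotation the entry is: not given in the sources used here. The authors deposited raw counts of 56941 Ensembl genes in 80 libraries. Symbols and coordinates came from GENCODE, which matched 56323 genes.

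Counts were fitted with edgeR 4.0.16 (quasi-likelihood test, R 4.3.3) over the 20 libraries, with the title run as a term, TMM normalization and the default filter on low counts. Libraries of a group varied by 16.1% (coefficient of variation, from a common dispersion of 0.0259). Genes were called at a Benjamini-Hochberg adjusted p under 0.05. The difference between runs used an interaction term in these libraries, and that between sexes 40 libraries with a run term in each sex. Changes are log2 values with their SE, and levels are CPM with TMM sizes over all 80 libraries. The procedure was checked on simulated data. Other fits used DESeq2 1.42.0 and limma 3.58.1 (voom).

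Named genes were, among those called with a symbol and at least 1 CPM on average, the 12 that rose most and the 12 that fell most, then the 3 smallest p in each of 39 lists at most, and at most 6 called genes of smallest p for each difference. A gene that the rule names is not reported here. The members and lists were chosen with earlier results of these data known. Replicates carry numbers in accession order. No 2 libraries of a group agreed within sampling noise.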

Additional observations from a re-analysis of the deposited data

Results flagged for a closer look

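Of 122 values of a gene in a group of 10 libraries, 11 had 1 library far from the others, where chance alone flags about 1 in 20. Mixed field replicate 10 held 4 of them. It was highest in Psrc1 (2.84 CPM, next 1.75 CPM), Stat2 (54.1 CPM, next 41.3 CPM) and Xist (280 CPM, next 198 CPM), and lowest in Ptpn4 (13.4 CPM, next 20.1 CPM). Gamma replicate 2 was highest in Itpkc (5.76 CPM, next 4.55 CPM), Pdk4 (1856 CPM, next 651 CPM) and Amd1 (214 CPM, next 142 CPM). Mixed field replicate 5 was highest in Hba-a1 (1313 CPM, next 639 CPM), and mixed field replicate 7 in Gpcpd1 (286 CPM, next 220 CPM). Gamma replicate 8 was highest in Oasl1 (4.14 CPM, next 2.85 CPM), and gamma replicate 7 lowest in Xist (0.129 CPM, next 117 CPM).

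For 9 named genes the change between the fields differed between the title runs (upper minus lower) by edgeR at an adjusted p under 0.05. The differences were 1.12 for Kcne1, 0.97 for mt-Nd4l, -0.76 for Cd68, -1.14 for Slc43a2, -1.43 for Lcp1, -1.75 for Laptm5, -0.93 for Sdc3, -1.14 for Csf1r and -1.66 for Cybb. All but Kcne1, mt-Nd4l and Cd68 were named because they were called for this difference, so their flags were fixed in advance. For 8 named genes the change between the fields differed between the sexes (F minus M). These differences were -0.64 for Hsd17b11, -0.69 for Nr1d2, 0.83 for Slc41a3, -0.72 for Tef, -1.01 for Rhobtb1, -0.88 for Gpcpd1, -0.78 for Amd1 and -1.25 for Per2. All but Hsd17b11 and Nr1d2 were likewise named for being called in the difference between the sexes.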

How the results depend on the processing

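The 123 calls over the 20 libraries became 112 with RLE normalization, 141 with limma voom, 260 with no filter on low counts, 733 with DESeq2, 1 with no term for the title run, 8 and 7 when all 40 F or all 80 libraries were fitted, 381 with the first component of the clock genes as a term and 31 with the ribosomal RNA share as a term. They were 377 in title numbers 1 to 20, 5 in title numbers 21 to 40, 29 without gamma replicate 7, 115 without mixed field replicate 10, 82 without both, 2 with correction for GC content and length, and 1 to 614 with each library left out in turn. The share of calls that were higher was 25.2%, against 40.8% with no filter, 54.9% in title numbers 1 to 20 and 80% in title numbers 21 to 40. The 1238 calls for the difference between runs became 743 without gamma replicate 7, 353 without that library and mixed field replicate 10, and 650 to 2550 with each library left out. The 20 calls for the difference between sexes became 96 with no filter, 140 with DESeq2, 31 without gamma replicate 7 and mixed field replicate 10, 12 with no run term, 81 with 80 libraries, 8 and 0 within the runs, and 14 to 405 with each library left out. None of the 31 named genes called over the 20 libraries changed sign under these alternatives, as selection on the pooled change favours. Of the 29 not called, 12 changed sign under at least 1, as did the medians of 26 of 39 lists. Some of the 29 were named because their change differed between runs, so the called and uncalled genes cannot be compared for steadiness. Apart from the construction of each alternative, the cause was not tested. The correction for GC content and length, the fits of the sex difference within runs, and the ribosomal RNA term for the difference between runs were chosen after seeing the data. No paired analysis was possible because mixed field and gamma titles share no numbers and numbers in accession order pair nothing.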
